A study of Mus musculus with 4 samples.

Results

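The basal layer of squamous epithelium was followed through 9 genes, chosen by symbol: the keratins Krt5, Krt14 and Krt15, the laminin chains Lama3 and Lamb3, the integrin subunits Itga6 and Itgb4, the collagen Col17a1 and the transcription factor gene Bnc1. All 9 were listed among the 14157 genes of the deposited table, and all 9 passed the filter on low values, which left 12304 genes. RNA had been sequenced from 4 esophageal tumours of C57BL/6 mice, which were induced with 4NQO, a carcinogen that forms DNA adducts. A pair of libraries came from tumours of wild-type mice (WT3 and WT6, numbered as in the labels) and a pair from tumours of mice labelled S100A14 CKO (KO1 and KO8), giving n = 2 in each group. All 4 tumours thus share the strain and the carcinogen. The ages, the carcinogen's dose and time, and the promoter behind the deletion are not given in the sources used here. Separate animals are not stated either, and a p-value therefore reflects only how far these 4 samples spread, which may be technical.

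Keratins 5 and 14 pair into the intermediate filaments of basal keratinocytes, and keratin 15 is a further basal type I keratin. These filaments attach through plectin and the BPAG1 protein, encoded by Dst, to hemidesmosomes, in which integrin α6β4 and collagen XVII span the cell membrane. Outside the cell they bind laminin-332 in the basement membrane, whose α3 and β3 chains are encoded by Lama3 and Lamb3. Basonuclin 1, encoded by Bnc1, is a zinc finger protein of basal keratinocytes and germ cells.

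RefSeq promoter sequence (GRCm38.p6) was matched by symbol for 5 of the 9 members. It is shown for Krt5 and Krt14, the filament partners that were both far lower in KO8, and for Bnc1, the member with the smallest p. Each run is the 250 bases before the annotated start, 5′ to 3′ on the gene's strand. Capitals mark matches, on either strand, to TGACTCA (AP-1), GCCNNNGGC (AP-2), TATAAA (the core promoter box) or GGGCGG (GC box). The windows lie at chr15:101712906-101713155 (minus strand) for Krt5, chr11:100206031-100206280 (minus strand) for Krt14 and chr7:81992300-81992549 (minus strand) for Bnc1.
Krt5: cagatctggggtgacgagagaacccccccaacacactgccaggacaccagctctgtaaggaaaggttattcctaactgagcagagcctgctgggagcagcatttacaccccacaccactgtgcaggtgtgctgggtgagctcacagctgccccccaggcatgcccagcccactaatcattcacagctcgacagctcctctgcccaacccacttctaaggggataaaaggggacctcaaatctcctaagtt
Krt14: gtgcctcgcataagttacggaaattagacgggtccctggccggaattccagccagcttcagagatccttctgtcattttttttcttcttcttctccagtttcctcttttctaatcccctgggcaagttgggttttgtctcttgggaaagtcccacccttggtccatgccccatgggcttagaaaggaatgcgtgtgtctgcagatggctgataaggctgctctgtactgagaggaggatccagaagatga
Bnc1: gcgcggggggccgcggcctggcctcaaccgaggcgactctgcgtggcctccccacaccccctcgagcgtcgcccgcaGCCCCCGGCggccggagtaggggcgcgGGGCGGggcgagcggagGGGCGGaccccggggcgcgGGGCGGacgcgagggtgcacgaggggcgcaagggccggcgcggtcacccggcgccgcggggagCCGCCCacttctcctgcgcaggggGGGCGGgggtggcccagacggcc
The Bnc1 window was 83.6% G and C and held 5 GC box matches and 1 AP-2 match. None of these letters were found in the Krt5 window (56% G and C) or the Krt14 window (49.6%). Of 32851 promoters in the RefSeq table, 32.7% held a GC box match in the same 250 bases, 13.7% an AP-2 match, 12.4% a TATA box match and 4.46% an AP-1 match. The Col17a1 window, at chr19:47692043-47692292 (minus strand), held 2 TATA box matches, 140 and 91 bases before the start. A match is a description of letters and not a binding site.

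Values below are the deposited scaled read values, in which 1 read equals 0.193, 0.318, 0.220 and 0.258 in WT3, WT6, KO1 and KO8. Nuclear protein-coding genes held 2107060, 1289852, 1530127 and 1052423 reads in these libraries, and ribosomal RNA genes took 47.0% to 76.4% of all reads. The deleted gene S100a14 had 463 reads in WT3, 347 in WT6, 0 in KO1 and 1 in KO8. KO8 stood apart: its log2 values correlated at r = 0.769 to 0.816 with the other libraries across 12304 genes. The other 3 correlated at 0.908 (WT3 with WT6) to 0.915 (WT3 with KO1) with each other. Results are therefore given for each KO library as well as for the pair.

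Markers of squamous basal cells were read in all 4 libraries. Krt5 and Krt14 were the highest members per kilobase of exon in all 4 libraries, with Krt14 above Krt5 in each. A ranking among 9 chosen genes does not test the identity of the tissue. Trp63, the master transcription factor of basal squamous cells, had 235 (WT3) and 407 (WT6) against 244 (KO1) and 241 (KO8), with the KO values inside the WT range. Sox2, which marks esophageal basal cells, had 46.3 (WT3) and 15.6 (WT6) against 31.2 (KO1) and 34.01 (KO8). Both come from a list of 16 basal cell regulators and surface genes, of which 12 were lower and 4 higher in KO. The list's median log2 difference from the WT mean was −0.05 in KO1 and −0.49 in KO8. Over all genes tested it was −0.02 and −0.08. Epcam and the simple keratins Krt7, Krt8, Krt18 and Krt19 summed to between 11.7 (KO1) and 52.1 (KO8) in the 4 libraries, against 5341 to 22400 for the 9 members.

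In the comparison of KO with WT, no member passed the threshold of an adjusted p of 0.05 in limma, in either direction. Over all 12304 genes, 0% were called higher in KO and 0.00813% lower, the latter being S100a14 alone. At an unadjusted p under 0.05 there were 2 members, Lama3 and Bnc1, and 646 genes in all. Among the members there were 5 higher and 4 lower in KO, with a median log2 fold change of 0.37, against −0.03 over all genes tested. Both KO libraries lay above both WT libraries for 3 members (Lama3, Itga6 and Bnc1), where 14.5% of all genes did. Both lay below for 1 member (Krt14), where 19.3% of all genes did. The 9 genes did not move together in KO8. The 3 keratins and Col17a1 were below both WT libraries there, whereas the laminin chains, Itga6 and Bnc1 were above both. Itgb4 lay inside the WT range.

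**Figure D1:**
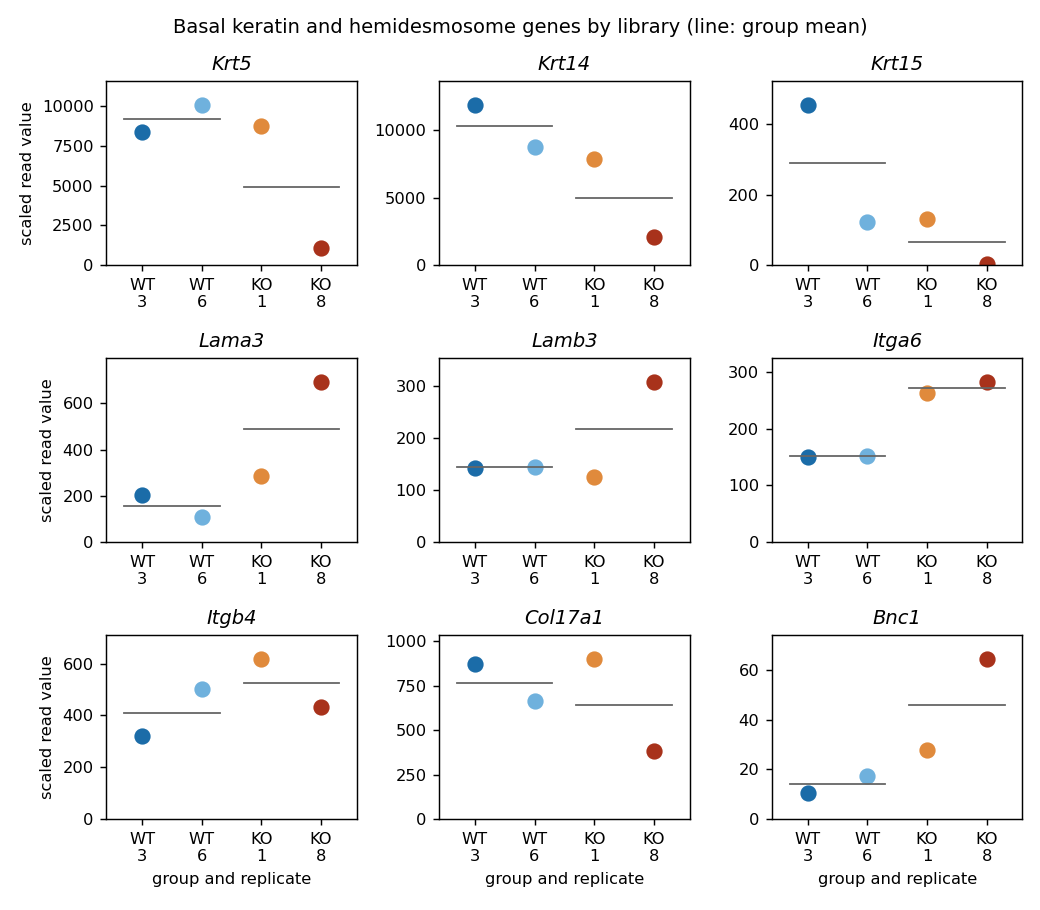
Scaled read value of each member in each library, with replicate numbers on the horizontal axis and a line at each group mean (n = 2). Krt5, Krt14, Krt15 and Col17a1 have their lowest point in KO8, where Lama3, Lamb3, Itga6 and Bnc1 have their highest.

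Krt5, the basal type II keratin, had 8370.4 in WT3, 10079 in WT6, 8751 in KO1 and 1057 in KO8. KO1 lay between the WT libraries and KO8 was 8.73-fold below the WT mean. The log2 fold change of KO against WT for Krt5 was −1.59 (SE 0.98, 95% interval −3.90 to 0.72, limma adjusted p = 0.934). Krt14, its type I partner, had 11878 in WT3, 8730.2 in WT6, 7872 in KO1 and 2122 in KO8. Both KO libraries lay below both WT libraries, by 1.31-fold and 4.86-fold against the WT mean. Its log2 fold change was −1.32 (SE 0.77, limma adjusted p = 0.931).

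Krt15 varied most, also within WT. It had 455 in WT3, 123 in WT6, 131 in KO1 and 2.58 in KO8, which are 2355, 387, 596 and 10 reads. The WT libraries differed from each other by 1.88 on the log2 scale, and KO1 lay between them. KO8 was 112-fold below the WT mean for Krt15. The log2 fold change was −3.45 (SE 1.51, limma adjusted p = 0.926). The basal keratins resemble other keratins in sequence, and the sources do not say how reads shared by paralogs were counted, which leaves single keratins uncertain.

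Without KO1, where the lone KO library is assumed to vary like the WT pair, limma called 510 genes (4.14% of those tested), and Krt15 (−6.05, adjusted p = 0.00109) and Krt5 (−3.12, adjusted p = 0.0192) were among them. Without KO8 no member was called, where 0.0488% of all genes were, and the log2 fold changes were −0.85 for Krt15, −0.37 for Krt14 and −0.07 for Krt5. The difference between the groups in these keratins thus rested on KO8. In bulk tumour RNA, fewer basal cells and less keratin RNA per cell cannot be told apart.

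Ratios within a library do not depend on the scaling between libraries. Per kilobase of exon, the ratio of Krt5 to Krt14 was 0.564 in WT3, 0.924 in WT6, 0.890 in KO1 and 0.399 in KO8. Krt15 to Krt14 was 0.0381 in WT3, 0.0140 in WT6, 0.0166 in KO1 and 0.00121 in KO8. For both ratios KO1 lay between the WT libraries and KO8 below all others, so the 3 basal keratins were not lower by the same factor there. Set against Trp63, a reference chosen after the values were seen, Krt14 was 50.6 in WT3, 21.4 in WT6, 32.2 in KO1 and 8.80 in KO8.

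Measured against other keratins, the basal keratins together had a larger share in both KO libraries than in both WT libraries. Krt5, Krt14 and Krt15 together made up 30.1% of the reads of 21 listed keratin genes in WT3, 42.3% in WT6, 52.2% in KO1 and 62.9% in KO8. The exact binomial 95% intervals, which cover counting error only, were 30.0% to 30.3%, 42.0% to 42.5%, 52.0% to 52.5% and 62.25% to 63.6%. With 2 libraries against 2 the smallest exact two-sided permutation p is 0.333. Krt14 alone took 17.3% (WT3) and 19.5% (WT6) against 24.5% (KO1) and 42.0% (KO8). Krt5 took 12.2% (WT3) and 22.5% (WT6) against 27.3% (KO1) and 20.9% (KO8), with KO8 inside the WT range. Krt15 took 0.661% (WT3) and 0.274% (WT6) against 0.409% (KO1) and 0.0510% (KO8), its lowest share. In KO8 only Krt14 of the 3 had a share above both WT libraries, and in KO1 Krt5 and Krt14 did.

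The other keratins together took the rest of the keratin reads, a share that was by construction smaller in both KO libraries. Stress keratins (Krt6a, Krt6b, Krt16 and Krt17), which mark wounded and hyperproliferative epithelium, took 52.7% (WT3) and 50.7% (WT6) against 39.8% (KO1) and 34.2% (KO8). Suprabasal keratins (Krt1, Krt4, Krt10, Krt13 and Krt78) took 17.0% (WT3) and 6.70% (WT6) against 7.80% (KO1) and 2.52% (KO8), with KO1 between the WT libraries. On the deposited scale, 4 of these 5 and all 4 stress keratins lay below both WT libraries in both KO libraries. Of all genes tested, 19.3% did. None of these keratins passed the threshold in limma. Krt4 had 5320 (WT3) and 1258 (WT6) against 387 (KO1) and 32.0 (KO8). Krt13, the exception, had 5976 (WT3) and 1688 (WT6) against 2094 (KO1) and 93.3 (KO8). All listed keratins together were 17.2% and 12.6% of nuclear protein-coding reads without Lars2 in WT, 9.75% in KO1 and 1.92% in KO8. The 3 basal keratins were 5.19% and 5.31% of those reads in WT, 5.10% in KO1 and 1.21% in KO8.

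**Figure D2:**
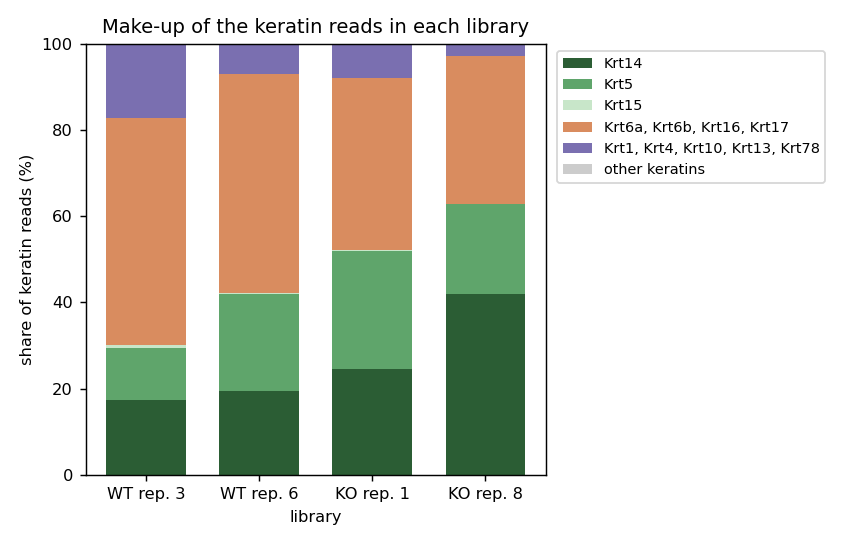
Share of the keratin reads (%) that each keratin group took in each library, as stacked bars from 0 to 100. Basal keratins (green) take 30.1% (WT3) and 42.3% (WT6) against 52.2% (KO1) and 62.9% (KO8).

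The laminin chains went the other way from the keratins in KO8. Lama3, the α3 chain, had 202 in WT3, 111 in WT6, 284 in KO1 and 691 in KO8. Both KO libraries were above both WT libraries, 1.82-fold and 4.42-fold over the WT mean. Lama3 thus had a log2 fold change of 1.56 (SE 0.58, 95% interval 0.21 to 2.92, unadjusted p = 0.0295, limma adjusted p = 0.925). Without KO1 it was 2.20 (adjusted p = 0.0459), and without KO8 it was 0.92.

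Lamb3, the β3 chain, had 143 in WT3, 144 in WT6, 126 in KO1 and 307 in KO8. The WT libraries were almost equal, KO1 lay below them and KO8 was 2.14-fold above their mean. Lamb3 had a log2 fold change of 0.45 (SE 0.52, limma adjusted p = 0.987), which was −0.19 without KO8.

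Per kilobase of exon, Lama3 to Lamb3 was 0.870 in WT3, 0.473 in WT6 and 1.39 in each KO library. Lama3 was thus below Lamb3 in both WT libraries and above it in both KO libraries. Lama3 is annotated with long and short isoforms, and the length used is that of all its exons together, so its level per kilobase depends on which isoforms were made.

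**Figure D3:**
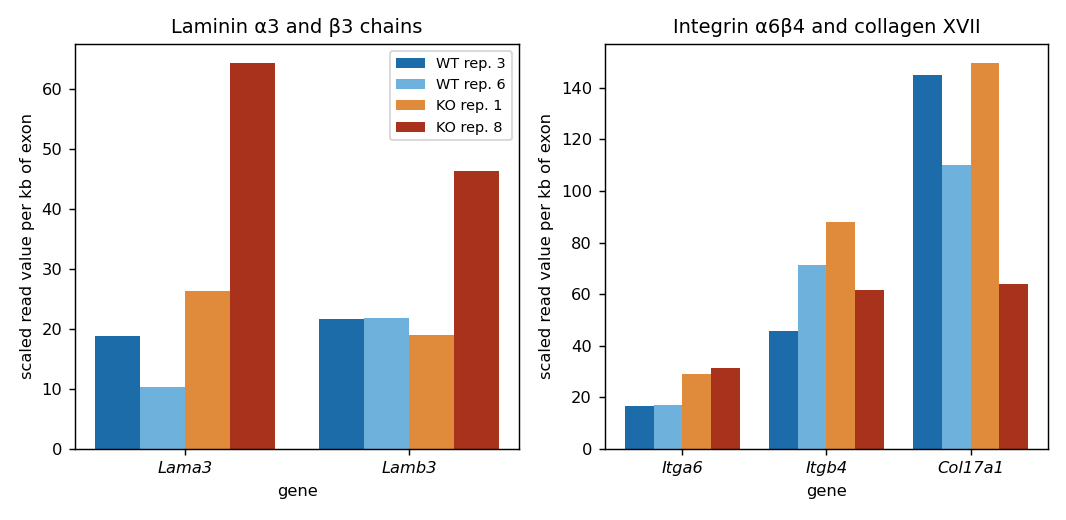
Scaled read value per kilobase of exon for Lama3 and Lamb3 (left) and for Itga6, Itgb4 and Col17a1 (right), with a bar for each library. Both laminin chains stand highest in KO8, and Itga6 is higher in both KO libraries than in WT.

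Itga6, the α6 subunit, was close within each group and higher in both KO libraries. It had 149.8 (WT3) and 152 (WT6) against 263 (KO1) and 282 (KO8). The WT mean was 151 ± 1.70 (SD, n = 2) and the KO mean 272 ± 13.7 (SD, n = 2), a ratio of 1.80. For Itga6 the log2 fold change was 0.85 (SE 0.41, 95% interval −0.11 to 1.80, limma adjusted p = 0.926), and it ranged from 0.79 to 1.20 over the 12 alternatives to the test, scaling and libraries. Itgb4, the β4 subunit that pairs with α6 in hemidesmosomes, had 320.02 in WT3, 501 in WT6, 617 in KO1 and 432 in KO8. On the deposited scale its groups overlapped (log2 fold change 0.37, SE 0.48, limma adjusted p = 0.995). The overlap depended on the scaling. For Itgb4 the log2 fold change was 0.72 when scaled by nuclear protein-coding reads without Lars2 (limma adjusted p = 0.801). It was 0.76 with quantile normalization (limma adjusted p = 0.946). Per kilobase, Itga6 to Itgb4 was 0.364 (WT3) and 0.236 (WT6) against 0.331 (KO1) and 0.508 (KO8).

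Integrin α6β4 is also made by Schwann cells and some endothelial cells. The 7 endothelial markers summed to 33.8 (WT3) and 50.8 (WT6) against 26.6 (KO1) and 24.5 (KO8). Of the 6 tested, 4 were lower in KO and 2, Pecam1 (log2 fold change 0.21) and Emcn (0.24), were higher, with none past the threshold in limma. Their part in the Itga6 values was not tested. The Schwann cell marker Mbp had 8.11 (WT3) and 13.3 (WT6) against 17.8 (KO1) and 5.67 (KO8).

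Col17a1, the collagen XVII gene, had 871 in WT3, 662 in WT6, 899 in KO1 and 383 in KO8. The KO libraries lay on either side of the WT pair, and the log2 fold change was −0.37 (SE 0.55, limma adjusted p = 0.997). It was 0.24 without KO8 and 0.15 with quantile normalization. Per kilobase Col17a1 was above the integrin and laminin members in WT3, WT6 and KO1. Its level was 145 in WT3, 110.2 in WT6, 149.5 in KO1 and 63.8 in KO8. In KO8 the levels per kilobase of Lama3 (64.3) and Itgb4 (61.5) were about the same as that of Col17a1.

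Bnc1 was the lowest member per kilobase in WT and KO1. It had 10.6 in WT3, 17.5 in WT6, 27.7 in KO1 and 64.2 in KO8, from 55, 55, 126 and 249 reads. Both KO libraries were above both WT libraries, 1.97-fold and 4.57-fold over the WT mean. The log2 fold change of Bnc1 was 1.56 (SE 0.55, 95% interval 0.27 to 2.85, unadjusted p = 0.0238, limma adjusted p = 0.910). It was 2.15 without KO1 (adjusted p = 0.0522) and 0.97 without KO8. In the authors' deposited table Bnc1 had a log2 fold change of 1.71, p = 0.00704 and an adjusted p of 0.282, the smallest among the members, and the authors' signs for the 9 members were the same as those found here.

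**Figure D4:**
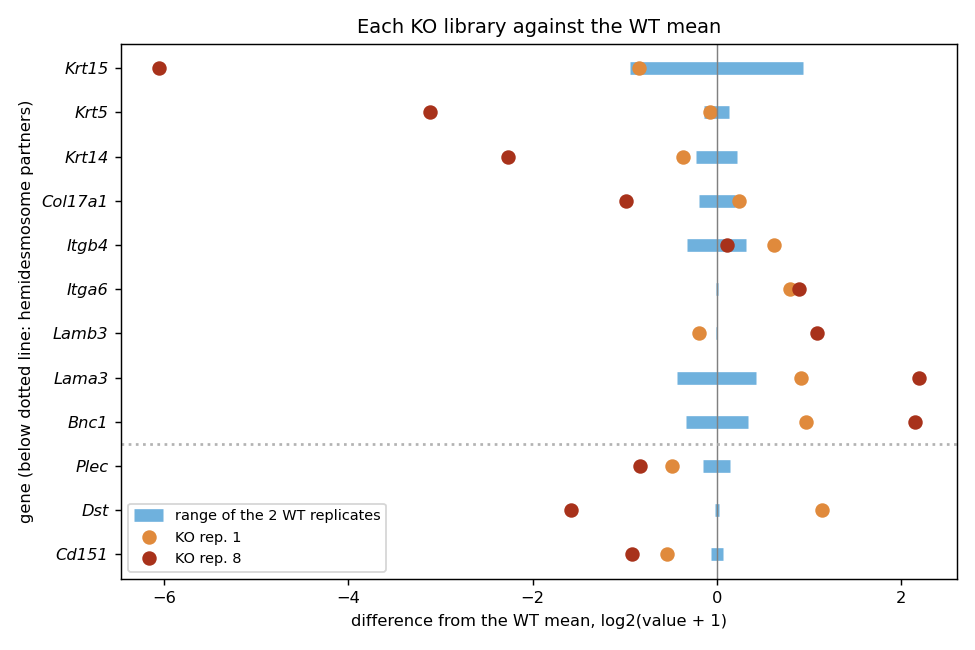
Difference of each KO library from the WT mean on the log2(value + 1) scale for the 9 members and, below the dotted line, 3 hemidesmosome partners. Blue bars span the 2 WT replicates. Krt15 lies at −6.05 and Lama3 at 2.20 in KO8, and Itga6 at 0.79 and 0.90 in the 2 KO libraries.

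The keratin values exceeded the laminin values by the smallest factor in KO8. The summed value of Krt5, Krt14 and Krt15 was 60.1 and 74.4 times that of Lama3 and Lamb3 in WT, 40.9 times in KO1 and 3.19 times in KO8. Lama3 and Lamb3 together were 0.0864% and 0.0714% of nuclear protein-coding reads without Lars2 in WT, 0.125% in KO1 and 0.380% in KO8. Itga6 and Itgb4 together were 0.118% (WT3) and 0.183% (WT6) against 0.267% (KO1) and 0.271% (KO8). Between the KO libraries the members differed by a median of 1.28 on the log2 scale, against 0.44 between the WT libraries. Over all 12304 genes these medians were 0.64 and 0.48.

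Other genes of the hemidesmosome did not share the pattern of the laminin chains. Plec, which encodes plectin, had 1584 (WT3) and 1946 (WT6) against 1253 (KO1) and 985 (KO8) (log2 fold change −0.66, limma adjusted p = 0.954). Cd151, a tetraspanin that binds laminin-binding integrins, had 37.6 (WT3) and 34.3 (WT6) against 24.4 (KO1) and 18.6 (KO8) (−0.73, limma adjusted p = 0.931). Both genes were lower in both KO libraries, and neither passed the threshold. Dst had 1559 in WT3, 1609.5 in WT6, 3509 in KO1 and 528 in KO8. The WT libraries were nearly equal while the KO libraries lay 2.21-fold above and 3.002-fold below their mean (−0.22, limma adjusted p = 0.998). The sign of the Dst fold change depended on the processing. It was 0.25 with quantile normalization, 0.39 in DESeq2 on recovered reads and 0.35 in the authors' deposited values. Dst also makes muscle and neuronal isoforms, and isoforms cannot be told apart in values per gene.

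Basement membrane genes beyond laminin-332 were split, with 5 of 15 tested higher and 10 lower in KO and none past the threshold (median −0.15). Lama5, the α5 laminin chain, had 277 (WT3) and 77.8 (WT6) against 124 (KO1) and 15.98 (KO8). Col4a5, a collagen IV chain, had 12.9 (WT3) and 6.04 (WT6) against 9.46 (KO1) and 0.515 (KO8), and Frem2, of the Fraser complex, had 4.83 (WT3) and 1.27 (WT6) against 1.10 (KO1) and 0.258 (KO8). All 3 were lowest in KO8, where Lama5 had 62 reads, Col4a5 had 2 and Frem2 had 1. Frem2 was low throughout, with 25 (WT3), 4 (WT6) and 5 (KO1) reads in the other libraries. The laminin chain genes Lamb1, Lamb2 and Lamc1 were named after their values were seen. Lamb1 was highest in KO8, Lamb2 was about the same in both KO libraries, and Lamc1 lay inside the WT range in both. Lamb1 had 18.3 (WT3) and 18.1 (WT6) against 20.2 (KO1) and 47.9 (KO8). Lamb2 had 10.4 (WT3) and 9.85 (WT6) against 11.9 (KO1) and 12.4 (KO8). Lamc1 had 30.9 (WT3) and 42.9 (WT6) against 39.1 (KO1) and 31.7 (KO8). Col7a1, the anchoring fibril collagen that binds laminin-332 (named after its values were seen), had 989.6 (WT3) and 445 (WT6) against 806 (KO1) and 1216 (KO8), with KO1 inside the WT range.

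Marker sums of several other cell types were highest in KO8, and their part in the members' values was not tested. Skeletal muscle markers, of which 11 of 12 were listed, summed to 7.53 (WT3) and 26.7 (WT6) against 23.3 (KO1) and 423 (KO8). Myh4 was at 0 in WT3 and KO1, and Tnnt3 and Mb in WT6. All 7 tested were higher in KO and 0 passed the threshold. For 5 of them both KO libraries lay above both WT libraries, where 14.5% of all genes did. Ttn alone made up 15.9 of the sum in WT6, against 6.60 in KO1. Fibroblast markers summed to 112 (WT3) and 242 (WT6) against 100.3 (KO1) and 855 (KO8), and 6 of 7 were higher. Macrophage markers summed to 35.7 (WT3) and 41.3 (WT6) against 91.9 (KO1) and 198 (KO8), with all 9 higher and Cd163 at 0 in WT6. Smooth muscle markers summed to 20.46 (WT3) and 80.7 (WT6) against 138 (KO1) and 175 (KO8), with all 7 higher in KO. Des, which skeletal muscle also expresses, made up 114 of the sum in KO8, and the other 6 summed to 18.5 (WT3) and 77.5 (WT6) against 133 (KO1) and 60.6 (KO8), with KO8 inside the WT range. The 2 listed lymphocyte markers, Ptprc and Trbc2, summed to 2.90 (WT3) and 4.45 (WT6) against 6.38 (KO1) and 32.7 (KO8). By these sums, KO1 lay within or below the WT range for skeletal muscle and fibroblast markers. It lay above that range for macrophage, smooth muscle and lymphocyte markers.

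**Figure D5:**
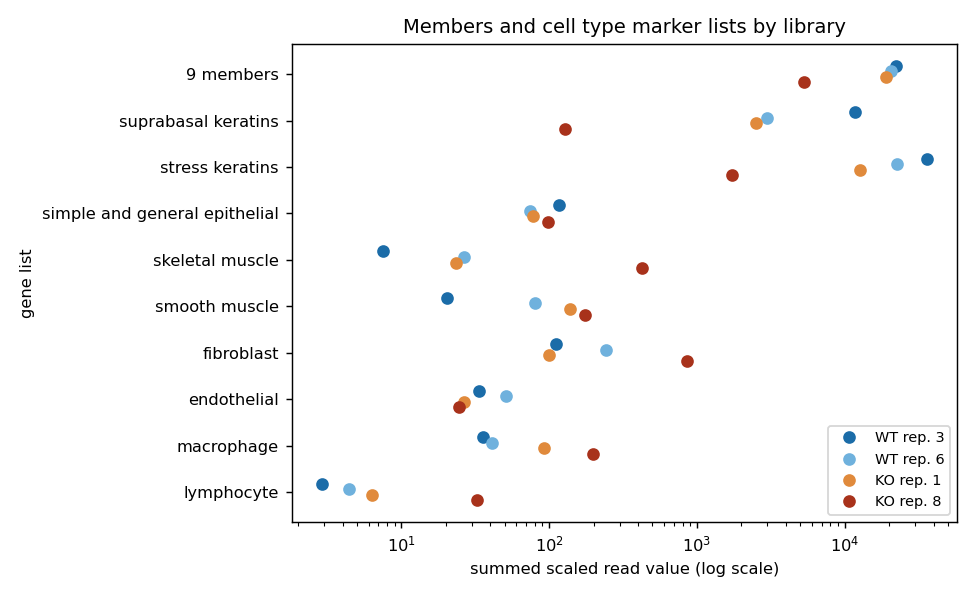
Summed scaled read value (log axis) of the 9 members and of marker lists for other cell types in each library. KO8 has the lowest sum of the members (5341) and the highest sums of skeletal muscle (423), fibroblast (855) and macrophage (198) markers.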

How the data were processed

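Trizol RNA of the 4 tumours went into TruSeq libraries, per the labels' protocols. The deposited library columns hold read signal scaled by the authors, which are whole multiples of one step per library (100% of values within rounding). The submitters' processing notes name DESeq and build mm9 with no role, while the aligner, counter and strandedness are not given there. The authors also deposited log2 fold changes, each p-value and its adjusted form, and the sign was read from S100a14.

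A gene was tested if 2 or more libraries reached a value of 1. The scale was log2(value + 1), which understates changes of low genes. The test was limma 3.58.1 in R 4.3.3 (trended prior, genotype as sole term, two-sided, Benjamini-Hochberg over all genes). No batch is given in the labels. On the recovered reads, edgeR 4.0.16 (quasi-likelihood) called 0 genes and DESeq2 1.42.0 called 52. Other alternatives changed the scaling, trend, filter, pseudocount (0.1) and libraries. The pipeline was tested on simulated data. Exon length is the union of GENCODE vM21 exons, and promoters are RefSeq's, on GRCm38.p6, a later build than mm9.

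The members and lists were chosen with earlier results of these data known. Named were all members, 3 hemidesmosome partners (Plec, Dst and Cd151), up to 3 genes of other lists by smallest p and, for Krt14 and Lama3, the 5 genes of mean value at least 20 with the most similar profile. Reads carry no molecular identifiers, so binomial intervals (95%) cover counting error only. Some genes of the lists are not reported here.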

Additional observations from a re-analysis of the deposited data

How the results depend on the processing

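No member passed the threshold under 11 of the 12 alternatives. Over the fits that left out 1 library each, 0 to 3 members and 0 to 510 genes were called, the upper ends without KO1. The count of all genes called, 1 in the reported fit, was 2 with no filter, 0 with a pseudocount of 0.1, 0 in edgeR's quasi-likelihood test on recovered reads (520 at an unadjusted p under 0.05) and 52 in DESeq2. Without KO8 it was 6. The cause of these differences was not tested. Members whose groups did not overlap numbered 5 to 8 with 1 library left out, where 60.9% to 75.7% of all genes did not overlap, against 4 with all libraries. Fewer libraries overlap less often by construction. Col17a1 reversed to 0.15 with quantile normalization and ranged from −0.98 to 0.24 with 1 library left out. Lamb3 ranged from −0.19 to 1.09 in those fits. The other 7 members kept their sign under all 12 alternatives. Scaling by nuclear protein-coding reads without Lars2 moved the median of all genes from −0.03 to 0.27. It placed 4 members, Itgb4 among them, above both WT libraries and 1 below, with 3403 and 1301 of 12413 genes. Quantile normalization also placed 4 members above and 1 below, with 1963 and 2073 of 12304 genes. No paired analysis was possible because the WT and KO replicate numbers in the labels are not shared. Depth limits Krt15 most, with 10 reads in KO8.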

Other observations

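Integrins and focal adhesion genes outside the hemidesmosome were higher in KO for 12 of 15 tested, where 5850 of 12304 genes were. For 6 of them both KO libraries lay above both WT libraries, where 14.5% of all genes did. None passed the threshold in limma, and the median log2 fold change was 0.46 against −0.03 over all genes. Against the WT mean, the list's median difference was 0.06 in KO1 and 0.69 in KO8. Itgb1, the β1 subunit of most other matrix integrins, had 56.7 in WT3, 54.97 in WT6, 61.4 in KO1 and 218 in KO8. Fermt2, which encodes the integrin activator kindlin-2, had 3.28 (WT3) and 2.86 (WT6) against 3.52 (KO1) and 15.98 (KO8), and Itga1, a collagen-binding subunit, had 2.90 (WT3) and 1.91 (WT6) against 7.26 (KO1) and 3.61 (KO8). The genes are also expressed by fibroblasts and skeletal muscle, whose marker sums were highest in KO8, and their part was not tested. Among regulators and surface genes of basal cells, 12 of 16 were lower in KO (median −0.35), where 6454 of 12304 genes were. Their median difference from the WT mean was −0.05 in KO1 and −0.49 in KO8. Tfap2c, an AP-2 transcription factor, had 24.5 (WT3) and 23.5 (WT6) against 9.90 (KO1) and 6.70 (KO8) (unadjusted p = 0.0143, limma adjusted p = 0.910). Jag2, a Notch ligand, had 179.7 (WT3) and 107 (WT6) against 66.6 (KO1) and 67.3 (KO8). Bnc2, the paralog of Bnc1, had 2.90 (WT3) and 1.59 (WT6) against 9.90 (KO1) and 5.93 (KO8) (unadjusted p = 0.0295, limma adjusted p = 0.925).

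Likeness of profile was measured over the 4 libraries as the root mean square difference of centred log2 values, among 3558 genes. Closest to Krt14 were Aldh18a1 (0.0972), Camk1d (0.113), Tmem109 (0.128), Jup (0.131) and Gpnmb (0.133). Jup encodes plakoglobin of desmosomes. Krt5 ranked 341 for likeness to Krt14 and Col17a1 ranked 396. Closest to Lama3 were Plekhg3 (0.181), Tubb6 (0.249), Ppfibp1 (0.249), Soga1 (0.285) and Specc1 (0.315). Bnc1 ranked 74 for likeness to Lama3, Itga6 159 and Lamb3 166. With 4 libraries these rankings are descriptions.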
